A study of Mus musculus with 2 samples.

Results

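The genes described here move Ca2+ across the membranes of a cell. They are the channels that admit Ca2+ through the plasma membrane, the phospholipases C and release channels that empty the intracellular store, the pumps and exchangers that clear the cytosol, and the mitochondrial uptake complex. Members were chosen by gene symbol alone, with no measured value in the rule: 80 genes of the 18193 named on the arrays, read by 183 of the 45101 probe sets. They cover TRP, polycystin, Piezo, voltage-gated, Orai and P2X channels, the STIM sensors, phospholipases C of the beta and gamma classes, IP3 and ryanodine receptors, TRIC channels, Ca2+ pumps, Na+/Ca2+ exchangers, the mitochondrial uniporter and the Ca2+-sensing receptor.

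Gene expression was profiled in cartilage of wild-type C57BL/6J mouse embryos at stage E17.5, shortly before birth. One array held RNA of cartilage labelled as columnar and hypertrophic chondrocytes, and the other held RNA of cartilage labelled as round chondrocytes. The RNA of 3 cartilage plate portions was mixed for each array, so each group was 1 array and the spread between animals was not measured. For its arrays the study's methods describe sections of femoral cartilage plate enriched in round chondrocytes. They describe no portion for the columnar/hypertrophic array and name no cell sort. The columnar/hypertrophic array pools both zones. In such tissue a smaller share of cells expressing a gene and less of its RNA per cell cannot be told apart.

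In a resting chondrocyte the cytosol is kept low in Ca2+ by pumps of the plasma membrane and of the endoplasmic reticulum, the main internal store. Receptors coupled to phospholipase C generate IP3, which opens IP3 receptors on the store, and TRIC channels carry a counter-current of potassium as the store empties. STIM proteins sense the emptied store and open Orai channels at the surface, while TRP, Piezo and voltage-gated channels admit Ca2+ in response to lipids, stretch or membrane potential.

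Values are MAS5 signals, the linear brightness that Affymetrix software computes for a probe set, and every difference is on the log2 scale, columnar/hypertrophic minus round, so that a value above 0 means a brighter signal in columnar/hypertrophic cartilage. A signal under 100.5, the level below which 95% of the signals of chemosensory receptor probe sets lay, was treated as unmeasured and raised to that floor. The brightest probe set stands for a gene. A gene above the floor on 1 array gives only a bound, written "at least". The arrays were not replicated, so there is no test here, and a difference of at least 2-fold is called higher or lower by size alone. The only spread available is technical: probe sets of the same gene differed with an SD of 0.37 on the log2 scale over 4825 genes.

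Of the 80 genes, 48 were measured on at least 1 array and 39 on both, and 32 were under the floor on both. The columnar/hypertrophic array was at least 2-fold higher for 2 members, Cacna1c and Piezo1, where 4.31% of all 11703 measured genes were called higher. It was at least 2-fold lower for 2 members, Itpr3 and Trpc2, where 6.37% of all measured genes were called lower. The other 44 lay within 2-fold. By the 2-fold limit the members were called about as often as all genes. Their median difference was -0.13, against -0.05 for all measured genes, with 21 members above 0 and 27 below. The members' median was above that of all genes, not below it, with quantile normalization (0.10 above) and lowess centring (0.01 above). A difference of at least 0.5 in either direction was found for 22 members (45.8%), against 33.7% of all measured genes.

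Split by role, the members lay on different sides of 0. Of the 29 measured genes for entry across the plasma membrane, 9 were above 0 and 20 below, with a median of -0.28. That group also counts the store sensors Stim1 and Stim2, among the 9. It counts Trpm4 and Trpm5, which pass sodium rather than Ca2+, among the 20. Of the 10 measured pump, exchanger and mitochondrial uptake genes, 8 were above 0 and 2 below, with a median of 0.46. Among all measured genes 45.1% were above 0. These are counts of single array pairs and no test was made of the difference between the roles. With other scalings between the arrays, 18, 19 and 17 entry genes lay below 0, of 29, 29 and 28 measured, when medians were equalised, a lowess curve was removed or quantiles were equalised, where 33.1%, 53.2% and 50.3% of all measured genes lay below 0. In each of those scalings 8 pump, exchanger and uptake genes lay above 0, of 9, 10 and 9 measured. Of all measured genes 66.9%, 46.8% and 49.7% lay above 0 there. With the probe sets of each gene averaged, 7 of the 10 lay above 0, with a median of 0.27. Without probe sets of the suffixes _x_at, _s_at and _a_at, 8 of 9 did, with a median of 0.55.

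**Figure D1:**
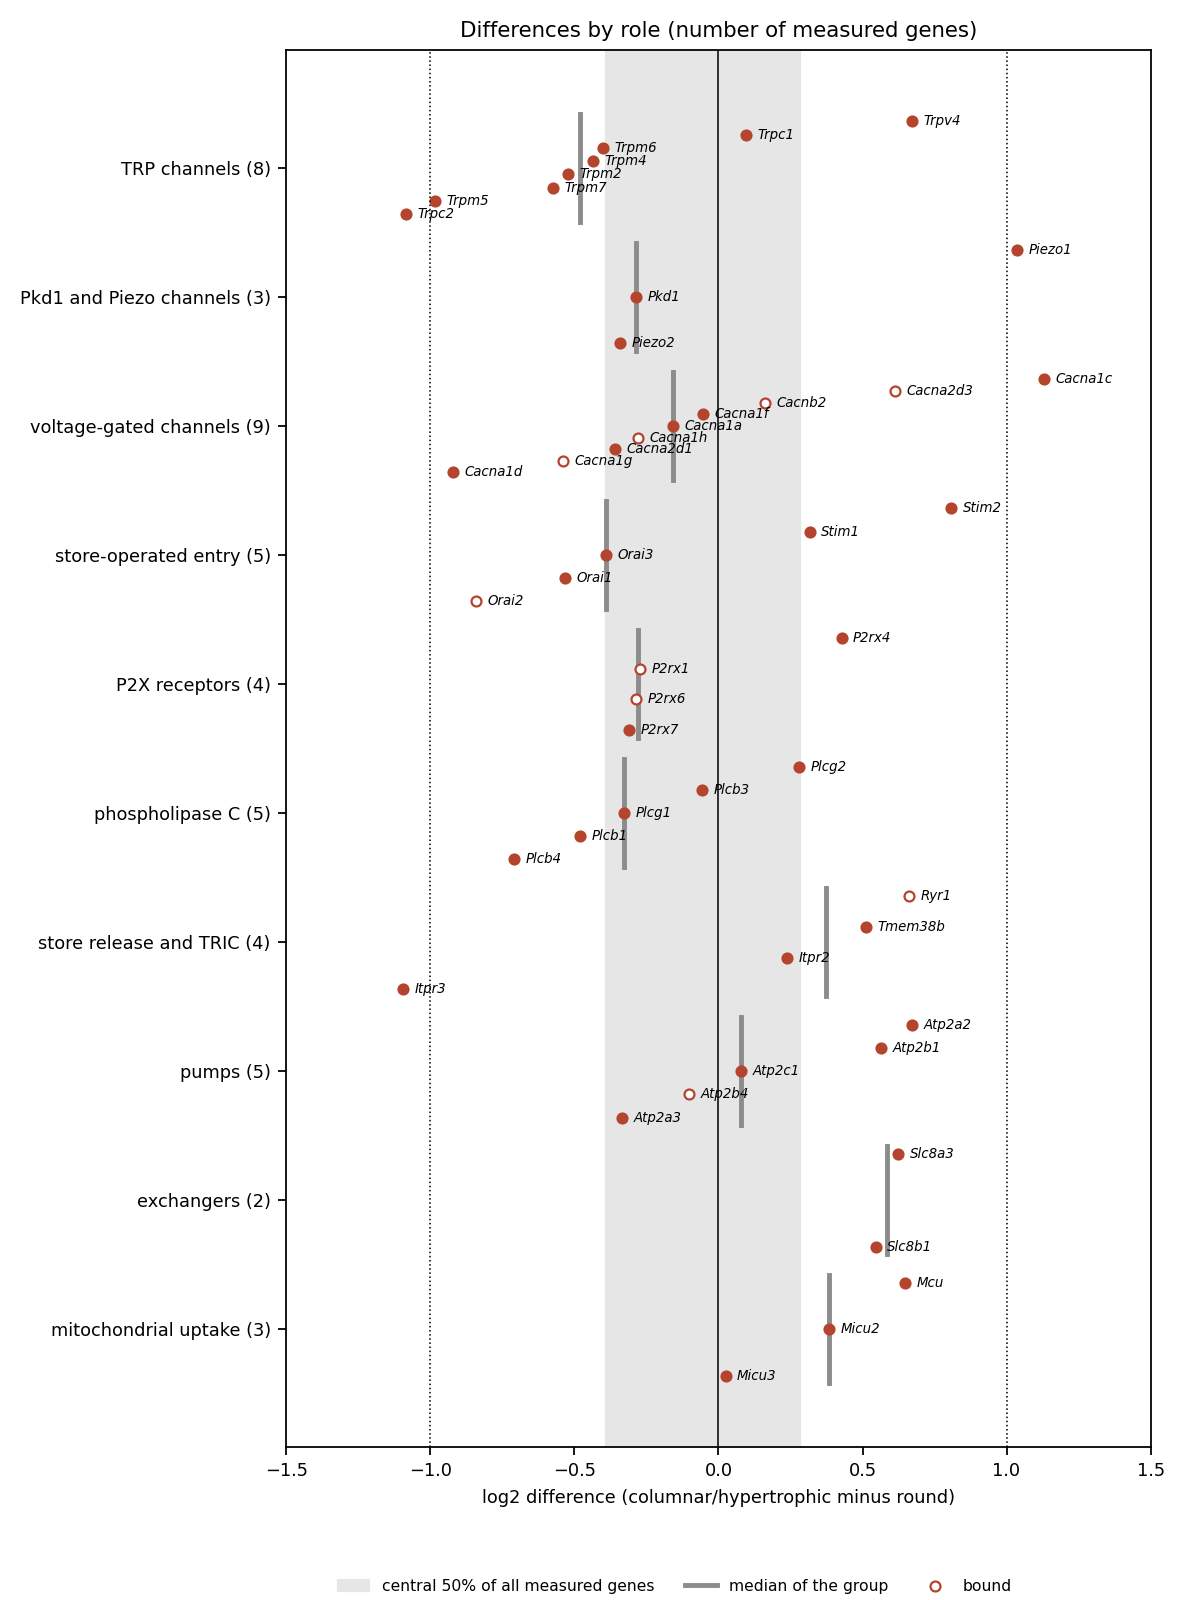
Log2 difference (columnar/hypertrophic minus round, horizontal axis) of the 48 measured genes by role, with the number of measured genes in brackets; filled points were above the floor on both arrays, open points are bounds, grey bars are group medians and the band holds the central 50% of all measured genes. The dotted lines mark 2-fold, and 4 genes lie beyond them: Cacna1c and Piezo1 to the right, Itpr3 and Trpc2 to the left.

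The gene starts of the members past 2-fold that had a single listed promoter are shown here, together with those of Trpm5, which fell just short of 2-fold, and Trpv4, a channel well known from cartilage. The promoter sequences are those of RefSeq (GRCm38.p6), 250 bases before the start to 50 after it, read 5′ to 3′ on the gene's strand. Piezo1 lies at chr8:122551280-122551579 (minus strand), Trpc2 at chr7:102082866-102083165 (plus strand), Itpr3 at chr17:27057054-27057353 (plus strand), Trpm5 at chr7:143094593-143094892 (minus strand) and Trpv4 at chr5:114658372-114658671 (minus strand).
Piezo1: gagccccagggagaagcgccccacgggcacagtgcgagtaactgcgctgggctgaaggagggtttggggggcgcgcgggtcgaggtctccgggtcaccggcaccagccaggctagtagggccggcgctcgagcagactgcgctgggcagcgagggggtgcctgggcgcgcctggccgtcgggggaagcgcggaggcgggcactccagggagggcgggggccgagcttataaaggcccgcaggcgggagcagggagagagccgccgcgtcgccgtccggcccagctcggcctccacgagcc
Trpc2: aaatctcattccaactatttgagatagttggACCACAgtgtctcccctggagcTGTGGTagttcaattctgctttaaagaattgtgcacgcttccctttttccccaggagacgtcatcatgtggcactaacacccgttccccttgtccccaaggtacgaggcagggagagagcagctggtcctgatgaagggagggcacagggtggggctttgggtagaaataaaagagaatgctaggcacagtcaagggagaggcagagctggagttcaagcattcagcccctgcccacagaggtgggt
Itpr3: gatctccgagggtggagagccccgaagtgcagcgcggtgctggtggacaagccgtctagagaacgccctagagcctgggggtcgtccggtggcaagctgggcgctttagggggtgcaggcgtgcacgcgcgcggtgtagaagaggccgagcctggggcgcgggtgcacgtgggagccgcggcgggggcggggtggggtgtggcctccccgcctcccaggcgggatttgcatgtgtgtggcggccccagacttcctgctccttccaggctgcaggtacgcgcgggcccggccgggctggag
Trpm5: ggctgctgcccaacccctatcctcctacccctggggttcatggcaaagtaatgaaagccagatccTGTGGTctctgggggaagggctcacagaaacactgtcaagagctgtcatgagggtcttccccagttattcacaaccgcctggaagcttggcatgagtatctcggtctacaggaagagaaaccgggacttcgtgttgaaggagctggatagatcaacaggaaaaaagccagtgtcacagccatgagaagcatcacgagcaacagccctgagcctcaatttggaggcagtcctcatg
Trpv4: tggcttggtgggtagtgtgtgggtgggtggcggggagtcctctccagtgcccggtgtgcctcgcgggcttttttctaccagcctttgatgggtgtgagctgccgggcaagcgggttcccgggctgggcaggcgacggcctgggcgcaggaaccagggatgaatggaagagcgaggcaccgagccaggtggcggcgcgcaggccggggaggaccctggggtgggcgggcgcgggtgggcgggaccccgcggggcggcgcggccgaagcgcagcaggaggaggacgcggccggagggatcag
Capitals mark the core of RUNX sites, TGTGGT or its complement, a motif of the factors that direct chondrocyte hypertrophy. It was found at -219 and -197 from the start of Trpc2 and at -185 of Trpm5, and not in the other 3 windows. The letters occurred in 11 of the 80 promoters listed for 63 of the members (13.8%), against 16.8% of all 32851 promoters of this length. The SOX core ACAAAG, searched on both strands in the same way, was in 16.3% of the members' promoters and 18.7% of all. TGATGNAA, the composite site of ATF4, was in 1 member promoter, of Cacna1c, and in 3.97% of all, and the ER stress response element was in none of the members' and in 0.119% of all. The members' promoters had a median GC content of 60.5%, against 52.7% for all. None of these motifs was more common among the members, and a match is a description of letters, not of binding.

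Of the stretch-gated Piezo channels, Piezo1 was called higher on the columnar/hypertrophic array. Piezo1, a large channel opened directly by membrane tension, had a signal of 2055 on the columnar/hypertrophic array and 1002 on the round array, a difference of 1.04. It was read by a single probe set, on chromosome 8 in a gene that overlaps Ctu2 in the RefSeq table. The difference was between 1.01 and 1.32 in the other scalings. Its paralog Piezo2, the channel of touch neurons, had signals of 258 on the columnar/hypertrophic array and 327 on the round array. The 2 probe sets of Piezo2 gave differences of -0.34 and -0.56. The gene value of -0.34 is within the technical SD of 0.37, and in the other scalings it was between -0.17 and -0.06.

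Trpv4, an osmotically and mechanically gated channel whose human mutations cause skeletal dysplasias, had a signal of 4409 on the columnar/hypertrophic array and 2769 on the round array. The difference of 0.67 is 1.59-fold, under the limit used for a call, and lay between 0.56 and 0.95 in the other scalings. Pkd1, the large polycystin membrane protein, had signals of 669 on the columnar/hypertrophic array and 815 on the round array (-0.28). Trpc1, a channel subunit with proposed roles in store-operated and receptor-operated entry, was almost level, with 337 on the columnar/hypertrophic array and 315 on the round array (0.10).

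The TRPM channels lay on the side of the round array. All 5 measured members, Trpm2, Trpm4, Trpm5, Trpm6 and Trpm7, had gene values below 0, with a median of -0.52, and all 5 stayed below 0 in the 3 other scalings, where the median ranged from -0.40 to -0.24. None of them reached 2-fold.

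Trpm7, a channel fused to a kinase that passes Ca2+ and Mg2+, was read by 4 probe sets, and each gave the smaller signal on the columnar/hypertrophic array. The brightest gave 2975 on the columnar/hypertrophic array and 4434 on the round array (-0.58). Another pair gave 1527 and 1106 on the columnar/hypertrophic array, against 1835 and 1190 on the round array, with differences of -0.27 and -0.11. The dimmest stood apart from these, with 447 on the columnar/hypertrophic array and 1101 on the round array (-1.30). The direction was thus shared by the probe sets, while their differences ranged from -1.30 to -0.11. Trpm6, the close relative of Trpm7 in Mg2+ uptake by kidney and gut, was near the floor with 108 on the columnar/hypertrophic array and 143 on the round array (-0.40).

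Trpm5, the Ca2+-activated monovalent cation channel of taste cells, had 467 on the columnar/hypertrophic array and 923 on the round array. Its difference of -0.99 was the nearest to 2-fold among the genes not called, and its other probe sets gave -0.89 and -1.08. Trpm4, which works in the same way in many tissues, had 479 on the columnar/hypertrophic array and 648 on the round array (-0.44). Both pass sodium rather than Ca2+ and respond to Ca2+ from inside. For Trpm2, a channel opened by ADP-ribose, the probe sets gave -0.52 and 0.09 at signals of 106 and 130 on the columnar/hypertrophic array and 152 and 122 on the round array, so its direction was not settled.

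Trpc2, the channel of pheromone-sensing neurons in the mouse, was called lower. Its probe sets gave 567 and 263 on the columnar/hypertrophic array, against 1202 and 634 on the round array, with differences of -1.09 and -1.27. With equal medians the gene's difference was -0.80 and the call was lost. In the RefSeq table Trpc2 overlaps Xndc1 and the read-through gene Xntrpc, so which transcript these probe sets read is uncertain. The remaining 11 TRP genes were under the floor on both arrays: Trpa1, Trpc4, Trpc5, Trpc6, Trpc7, Trpm1, Trpm3, Trpm8, Trpv1, Trpv2 and Trpv6. Over the 8 measured TRP genes, 2 were above 0 and 6 below, with a median of -0.48.

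**Figure D2:**
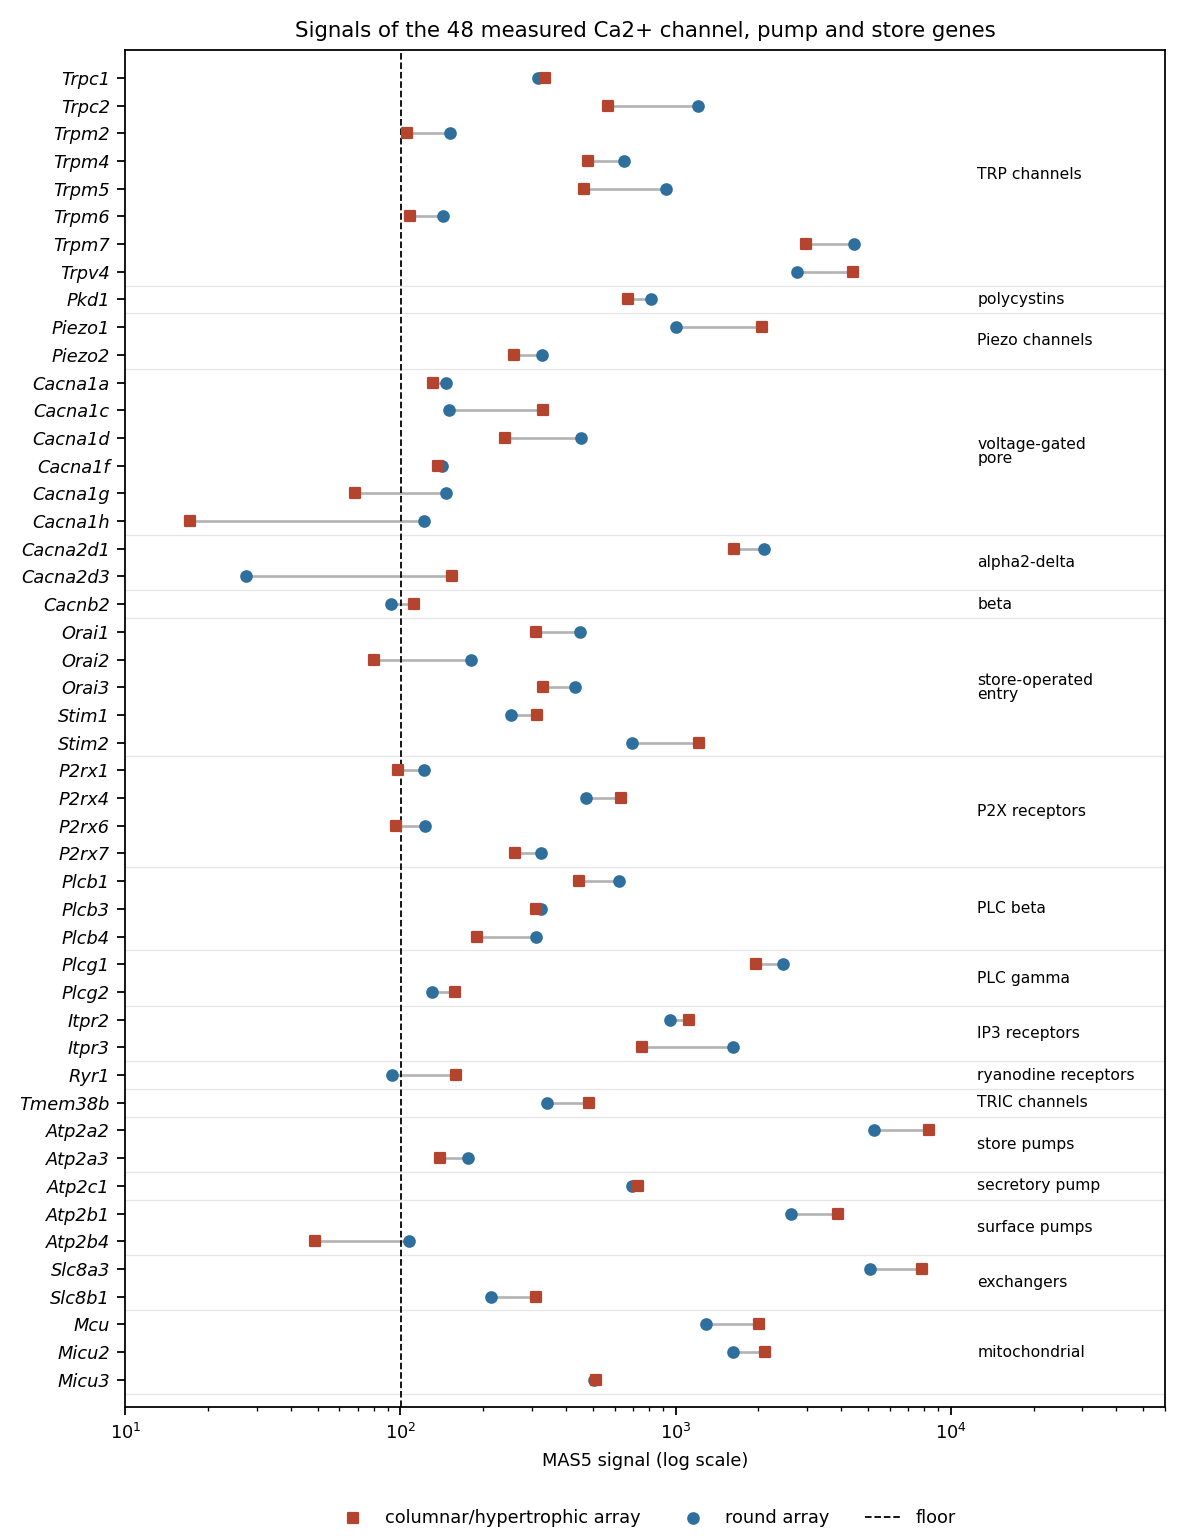
MAS5 signal on a logarithmic axis of the 48 measured genes, ordered by role, on the columnar/hypertrophic array (squares) and the round array (circles), and the floor of 100.5 drawn dashed. All 5 TRPM genes have their square left of their circle, while Piezo1, Trpv4, Atp2a2, Atp2b1, Slc8a3, Mcu and Micu2 have it to the right.

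Voltage-gated Ca2+ channels were mostly weak. Of 16 genes for pore, alpha2-delta and beta subunits, 9 were measured, 4 of them as bounds, with 3 above 0, 6 below and a median of -0.16. That median turned to 0.12 with equal medians and 0.11 with quantile normalization, so the group has no direction of its own.

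The L-type pores Cacna1c and Cacna1d lay on opposite sides. Cacna1c, which encodes Cav1.2 of heart and smooth muscle, had 329 on the columnar/hypertrophic array and 150 on the round array in its brightest probe set, a difference of 1.13. Its other measured probe set gave 14.3 on the columnar/hypertrophic array and 115 on the round array, a bound of -0.19 in the other direction. The call for Cacna1c, a gene that overlaps Dcp1b in the RefSeq table, therefore rests on 1 of its probe sets, and with all of them averaged the difference was 0.47. Cacna1d, which encodes Cav1.3 of pacemaker and sensory cells, had 240 on the columnar/hypertrophic array and 455 on the round array (-0.92), and its other probe set also lay below 0, at -0.61 or further.

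The remaining pores were close to the floor. Cacna1a, the P/Q-type pore of nerve terminals, gave 132 on the columnar/hypertrophic array and 147 on the round array, with bounds of -0.78 and 0.63 from its other probe sets. Cacna1f, an L-type pore of photoreceptors, gave 136 on the columnar/hypertrophic array and 142 on the round array. The T-type pores Cacna1g and Cacna1h, which open near the resting potential, were above the floor on the round array alone. Cacna1g had 68.3 on the columnar/hypertrophic array and 146 on the round array, which is at least 1.45-fold lower, and Cacna1h had 17.2 on the columnar/hypertrophic array and 122 on the round array, at least 1.21-fold lower.

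Among accessory subunits, which carry the pores to the surface, Cacna2d1 was the strongest case of disagreement. Its brightest probe set gave 1632 on the columnar/hypertrophic array and 2096 on the round array (-0.36). The others gave 0.04, 0.47 and 1.14, the last from 534 on the columnar/hypertrophic array and 243 on the round array. Cacna2d3 was measured on the columnar/hypertrophic array alone, with 154 there and 27.4 on the round array, at least 1.53-fold higher. Cacnb2, the beta subunit prominent in heart, gave 112 on the columnar/hypertrophic array and 92.2 on the round array. Cacna1b, Cacna1e, Cacna1s, Cacna2d2, Cacna2d4, Cacnb1 and Cacnb4 were under the floor on both arrays.

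For store-operated entry all 5 genes were measured. The pores were lower in signal on the columnar/hypertrophic array without reaching 2-fold. Orai1, the main pore of the store-operated current, had 310 on the columnar/hypertrophic array and 449 on the round array (-0.53). Orai3, a pore that can join Orai1 in mixed channels, had 329 on the columnar/hypertrophic array and 431 on the round array (-0.39). Orai2, which dampens the current of Orai1 in immune cells of the mouse, had 80.3 on the columnar/hypertrophic array, which is below the floor, and 180 on the round array, at least 1.79-fold lower. All 3 pores stayed below 0 in the other scalings.

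Stim2, the sensor that responds to small losses of store Ca2+, had 1213 on the columnar/hypertrophic array and 693 on the round array, a difference of 0.81 that passed 2-fold when array medians were equalised (1.09). Stim1, the sensor of deeper store depletion, was ambiguous. One probe set gave 314 on the columnar/hypertrophic array and 252 on the round array (0.32), and the other 206 on the columnar/hypertrophic array and 287 on the round array (-0.48).

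ATP-gated P2X channels gave no call. P2rx4, found on many cell types, had 635 on the columnar/hypertrophic array and 472 on the round array (0.43), with 0.48 and -0.20 from its other probe sets. P2rx7, the receptor of high ATP concentrations, had 261 on the columnar/hypertrophic array and 324 on the round array (-0.31). On the columnar/hypertrophic array P2rx1 and P2rx6 were just under the floor, at 98.1 and 96.0, and they were just over it on the round array, at 121 and 122. P2rx2, P2rx3 and P2rx5 were under the floor on both arrays, as was Casr, the receptor for extracellular Ca2+.

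The phospholipases C, which cut a membrane lipid into IP3 and diacylglycerol, were measured for 5 of 6 genes, with 1 above 0 and 4 below and a median of -0.33. In the other scalings 3 of the 5 were below 0. The beta class, driven by G protein-coupled receptors such as those for ATP, held Plcb4 with 190 on the columnar/hypertrophic array and 311 on the round array (-0.71). Plcb1 had 445 on the columnar/hypertrophic array and 621 on the round array (-0.48), against 0.58 in another of its probe sets. Plcb3 was level at 311 on the columnar/hypertrophic array and 323 on the round array. In the gamma class, driven by tyrosine kinases, Plcg1 had 1960 on the columnar/hypertrophic array and 2460 on the round array (-0.33), with -0.74 in a dim probe set. Plcg2, the form of blood cells, had 158 on the columnar/hypertrophic array and 130 on the round array (0.28). Plcb2 was under the floor on both arrays.

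On the store itself, the IP3 receptors differed from each other. Itpr3 was called lower, with 757 on the columnar/hypertrophic array and 1616 on the round array, a difference of -1.09. It had 1 probe set above the floor, and with equal medians the difference was -0.81 and the call was lost. Itpr2, the form most sensitive to IP3, was read by 6 probe sets whose differences ran between -0.44 and 0.51. Its brightest gave 1122 on the columnar/hypertrophic array and 951 on the round array (0.24), so no direction can be given for it. Ryr1, the release channel of skeletal muscle, was above the floor on the columnar/hypertrophic array alone, with 159 there and 93.1 on the round array, at least 1.58-fold higher. Ryr2 and Ryr3 were under the floor on both arrays.

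Skeletal muscle markers stand beside the Ryr1 value. Of 14, 4 were measured, and Tnnt3 was the only one called, higher on the columnar/hypertrophic array by at least 4.26-fold. The other measured markers lay below 0: Acta1 (-0.28 or further), Ckm (-0.03 or further) and Tnni2 (-0.30). The summed signal of the 14 was 1033 on the columnar/hypertrophic array and 965 on the round array. That sum includes 10 markers under the floor on both arrays, and Tnnt3 gave 429 and 63.4 of it. Atp2a1 and Cacna1s, the pump and the voltage sensor of skeletal muscle among the members, were under the floor on both arrays. The part of muscle RNA in the Ryr1 value was not tested.

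Tmem38b, which encodes the counter-ion channel TRIC-B, was above the floor on both arrays in all 3 of its measured probe sets, without a settled direction. The brightest gave 486 on the columnar/hypertrophic array and 341 on the round array (0.51). The others gave 277 and 292 on the columnar/hypertrophic array, against 390 and 343 on the round array, with differences of -0.49 and -0.23. Averaged over the probe sets, the difference was -0.07. Tmem38a, which encodes TRIC-A of excitable tissues, was under the floor on both arrays.

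Of the 5 pumps measured, 3 were above 0 and 2 below, and none was called at gene level. Atp2a2, the SERCA2 pump that fills the store in most tissues, had 8373 on the columnar/hypertrophic array and 5255 on the round array in its brightest probe set (0.67). Its dimmer probe sets gave differences between -0.29 and 0.24, and the mean of them all was 0.15. Atp2a3, the SERCA3 pump of epithelia and blood cells, had 140 on the columnar/hypertrophic array and 176 on the round array (-0.33). Atp2c1, the Ca2+ and Mn2+ pump of the Golgi, was level at 731 on the columnar/hypertrophic array and 692 on the round array (0.08). Its other measured probe sets gave -0.19 and -0.17, and the mean over its probe sets was -0.09, so its sign is not settled.

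Atp2b1, the housekeeping plasma membrane pump PMCA1, gave the larger signal on the columnar/hypertrophic array in each of its 3 measured probe sets. The brightest gave 3880 on the columnar/hypertrophic array and 2622 on the round array (0.57), and the second 3535 on the columnar/hypertrophic array and 1300 on the round array (1.44). The third gave 1822 on the columnar/hypertrophic array and 1416 on the round array (0.36). As for Trpm7, the sign was shared by the probe sets, while their differences ranged from 0.36 to 1.44. Atp2b4 was measured on the round array alone, with 49.0 on the columnar/hypertrophic array and 108 on the round array, and Atp2a1, Atp2b2, Atp2b3 and Atp2c2 were under the floor on both arrays.

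Slc8a3, the Na+/Ca2+ exchanger NCX3, had 7860 on the columnar/hypertrophic array and 5100 on the round array (0.62), with 0.28 in its other measured probe set. Its better known relatives Slc8a1 and Slc8a2, of heart and brain, were under the floor on both arrays. Slc8b1, which exports Ca2+ from mitochondria, had 311 on the columnar/hypertrophic array and 213 on the round array (0.55). Mcu, the pore of the mitochondrial uniporter, had 2015 on the columnar/hypertrophic array and 1287 on the round array (0.65), and 0.48 in its second probe set. Of the proteins that gate that pore, Micu2 had 2115 on the columnar/hypertrophic array and 1621 on the round array (0.38), and Micu3 was level at 514 on the columnar/hypertrophic array and 505 on the round array. The 3 uptake genes stayed above 0 in every scaling, with medians of 0.34 to 0.66, and all were within 2-fold.

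How far probe sets of a gene agreed decides how these values can be read. Over all measured member probe sets, 4 of 89 were called higher on the columnar/hypertrophic array by the 2-fold limit and 5 were called lower, where 4.27% and 6.00% of the 21589 measured probe sets naming 1 gene were called. The higher ones read Atp2b1, Cacna2d1, Cacna1c and Piezo1, and the lower ones Trpm7, Trpm5, Itpr3 and, with a pair of probe sets, Trpc2. For 17 member genes several probe sets were above the floor on both arrays. Their differences had the same sign in 8 of the 17 (47.1%), against 59.6% of the 4825 such genes on the arrays. They spanned more than 1 log2 unit in 5 of 17 (29.4%), against 11.5% of all such genes, and the median span was 0.67, against 0.42.

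**Figure D3:**
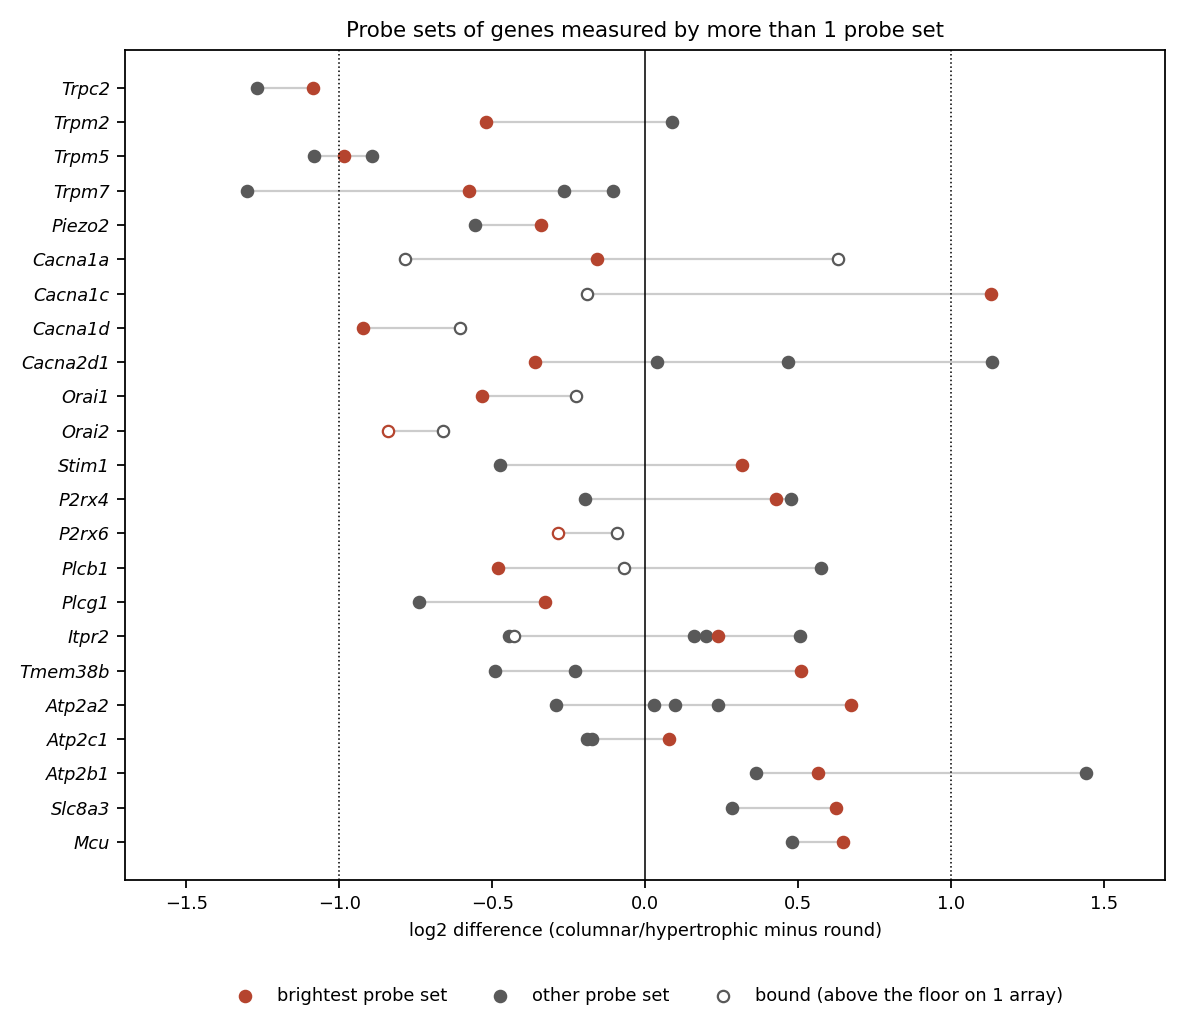
Log2 difference (columnar/hypertrophic minus round) of every measured probe set of the member genes that have more than 1, with the brightest probe set in red, the others in grey and bounds as open points; the dotted lines mark 2-fold. The probe sets of Trpm7, Trpm5, Trpc2, Piezo2, Atp2b1, Slc8a3 and Mcu fall on 1 side of 0, while those of Cacna2d1, Itpr2, Tmem38b, Stim1, Plcb1 and Atp2a2 straddle it.

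The genes that act with the members were read from 6 lists. Among all measured genes 4.31% were called higher and 6.37% lower, the shares to set beside the counts of each list. Of 38 genes for Ca2+ binding in the endoplasmic reticulum and for accessory store proteins, 35 were measured, with 2 called higher, 1 called lower and a median of 0.15. The 2 called higher, Mcoln2 and Mcoln3, encode endolysosomal channels. The other endolysosomal channel genes of the list were not called: Tpcn1 (0.95), Mcoln1 (-0.08) and Tpcn2 (-0.18). Mcoln2 had 1132 on the columnar/hypertrophic array and 273 on the round array (2.05), and Mcoln3 had 668 on the columnar/hypertrophic array and 53.9 on the round array, at least 6.65-fold higher. Homer2, a scaffold that tethers IP3 receptors, had 80.8 on the columnar/hypertrophic array and 405 on the round array, at least 4.03-fold lower.

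Of 19 genes for Ca2+ sensing and response, 16 were measured, 0 were called higher and 2 lower, with a median of -0.20. Camk4, a Ca2+-dependent kinase of the nucleus, had 178 on the columnar/hypertrophic array and 610 on the round array (-1.77). Nfatc4, a transcription factor freed by calcineurin, had 256 on the columnar/hypertrophic array and 767 on the round array (-1.58). Other probe sets of both genes gave smaller differences, down to -0.34 for Camk4 and -0.08 for Nfatc4, and neither gene was called when its probe sets were averaged.

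Of 29 genes of the phosphoinositide pathway outside the members, 15 were measured, with 1 called higher, 2 called lower and a median of 0.06. The listed G protein-coupled nucleotide receptor genes, P2ry1, P2ry2, P2ry4, P2ry6, P2ry12, P2ry13 and P2ry14, were under the floor on both arrays. Plcl2, a catalytically inactive relative of phospholipase C, had 1232 on the columnar/hypertrophic array and 226 on the round array (2.45). Itpkb, a kinase that consumes IP3, had 281 on the columnar/hypertrophic array and 743 on the round array (-1.40). Gna14, a G protein subunit that drives phospholipase C beta, had 71.4 on the columnar/hypertrophic array and 317 on the round array, at least 3.15-fold lower, though another of its probe sets bounded the difference at only -0.20.

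The 7 partners of mitochondrial uptake were all measured, 6 above 0 and 1 below, with a median of 0.40. Letm1, an ion exchanger of the inner membrane, was called higher with 777 on the columnar/hypertrophic array and 373 on the round array (1.06). Of 14 EF-hand buffer and S100 genes 6 were measured, with 0 called and a median of 0.25. Of 19 accessory genes of channels 6 were measured. Kcnma1, the Ca2+-activated BK potassium channel, had 1421 on the columnar/hypertrophic array and 413 on the round array (1.78), with differences of at least 0.60 in all its 5 measured probe sets. Stac2, an adaptor of L-type channels, had 84.2 on the columnar/hypertrophic array and 433 on the round array, at least 4.31-fold lower. The gene values of the members ran between -1.09 and 1.13. The partners named were picked for a difference of at least 2-fold, so their sizes cannot be compared with that range. With equal medians the median of the sensing and response list turned to 0.08, where that of all measured genes turned to 0.22. The sensing and response median was -0.15 with lowess centring and also with quantile normalization. With lowess centring the median of the phosphoinositide list turned to -0.02. The medians of the endoplasmic reticulum and mitochondrial lists stayed above 0 in the 3 other scalings. With lowess centring that of the endoplasmic reticulum list was only 0.01, with 19 genes above 0 and 16 below.

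**Figure D4:**
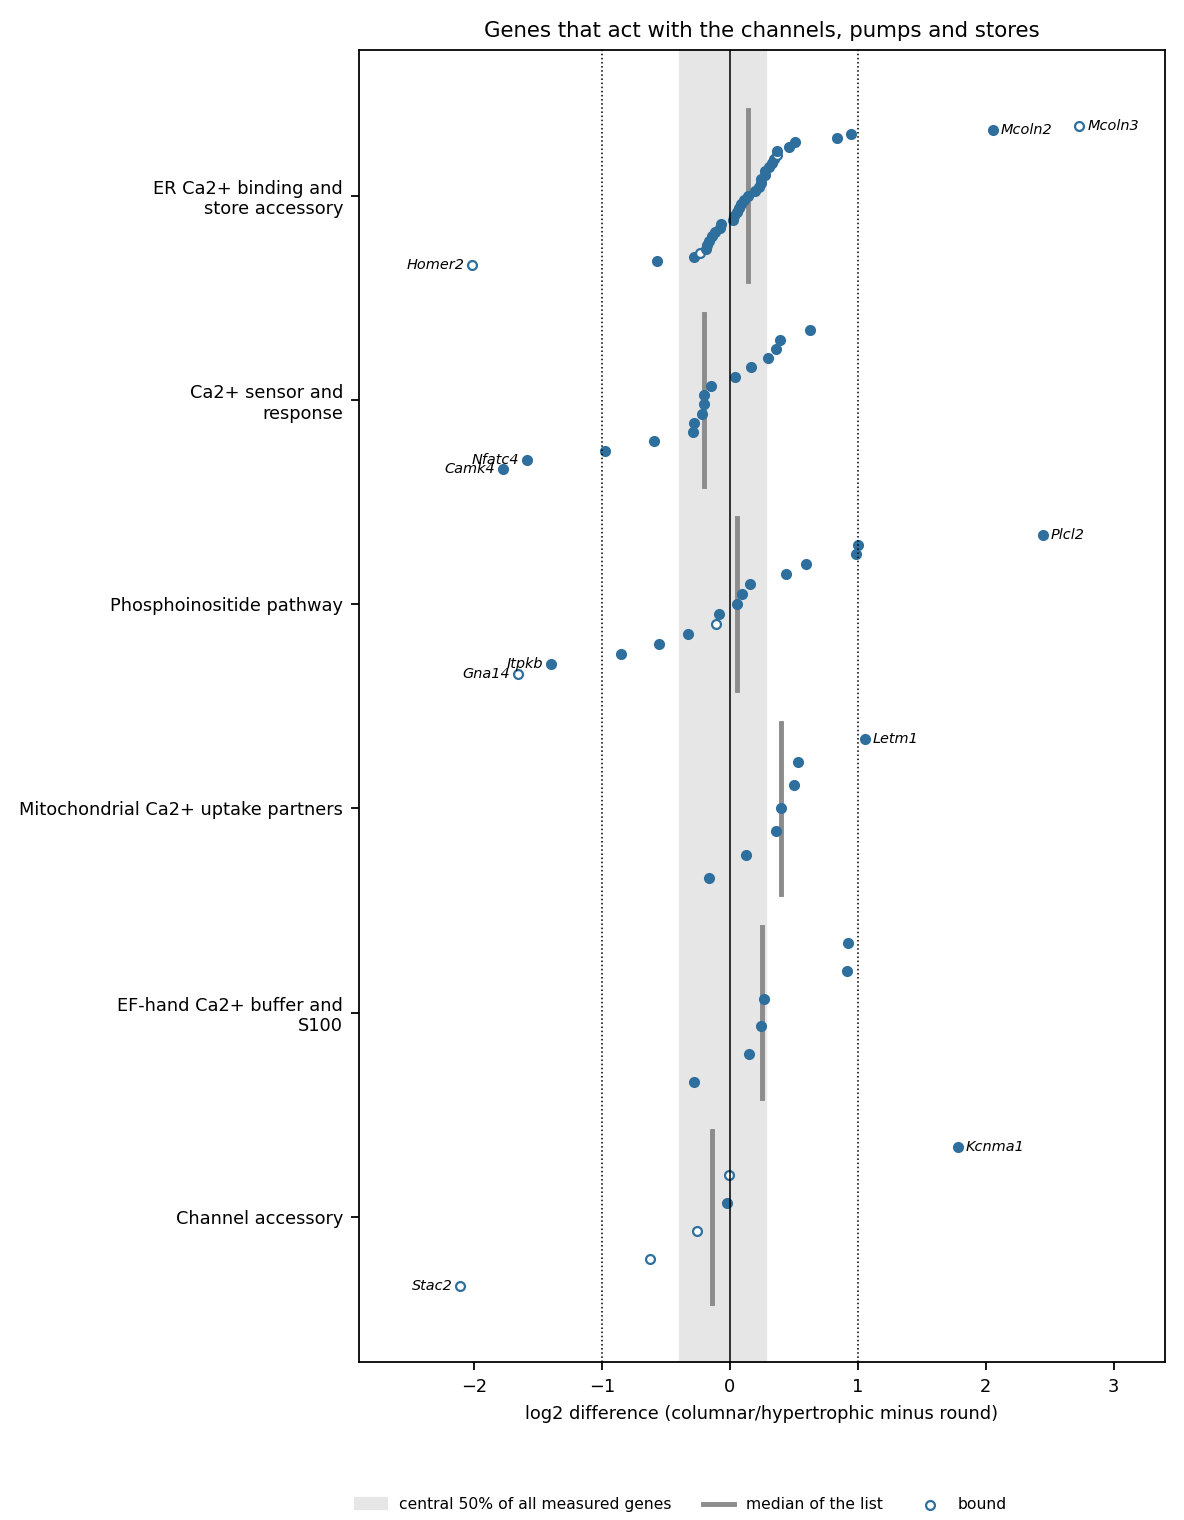
Log2 difference (columnar/hypertrophic minus round) of the measured genes of the 6 lists of partners, with grey bars for list medians, open points for bounds, dotted lines at 2-fold and a band for the central 50% of all measured genes; genes of at least 2-fold are named. Mcoln3, Plcl2, Mcoln2, Kcnma1 and Letm1 lie beyond 2-fold on the right, and Stac2, Homer2, Camk4, Gna14, Nfatc4 and Itpkb on the left.

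The labels of the arrays were checked against marker genes. Of 10 prehypertrophic and hypertrophic markers 8 were called higher on the columnar/hypertrophic array, Col10a1 among them, and of 9 round and periarticular markers 8 were called lower there. All 13 cartilage matrix genes were measured and 0 of them were called, though 12 lay above 0, with a median of 0.28. That median was 0.05 with lowess centring, 0.13 with quantile normalization and 0.56 with equal medians. Markers of perichondrium and tendon moved with the comparison: all 10 measured of 12 lay below 0 with 4 called lower, and their summed signal was 53844 on the columnar/hypertrophic array and 98935 on the round array. Their part in the lower values of the members was not tested. Of 10 blood markers 3 were measured. Lyz2 was called higher (1.17), while Csf1r (-0.56) and Cd68 (-0.37 or further) lay below 0. All 8 endothelial markers were under the floor on both arrays. The median signal of all probe sets was 105 on the columnar/hypertrophic array and 128 on the round array.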

How the data were processed

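Gene expression was measured on 2 Affymetrix mouse genome arrays, 1 per group, with biotin-labelled cRNA made from the mixed RNA of 3 portions. The deposited values are linear intensities, 1 signal per probe set. MAS5 is the tool named in the submitters' processing notes. Its version was not given in the sources used here, and the trimmed mean of each array was 500.0. The study's methods name RMA for its arrays, but the values reach down to 0.0948 and are linear, so they were read as MAS5 signals. MAS5 signals of weak genes are noisy, and scaling to 1 mean assumes equal total signal.

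Of 45101 probe sets, 34958 named 1 gene (34945 without 13 control probe sets), 932 named several and were used for no gene, and 9211 were unnamed here. Symbols were updated through Entrez identifiers to the RefSeq table of GRCm38.p6, which matched 34754 probe sets and all 80 members. The floor was the 95th percentile over both arrays of 87 chemosensory receptor probe sets. Signals under it were raised to it before log2 was taken, and a gene's value came from its brightest probe set by mean log2 signal. A gene under the floor on both arrays has no difference. Every measured member is named, and of each list the members of at least 2-fold. The members and lists were chosen with earlier results of these data known, and the promoter motifs after the promoters were read. No test was made, since there were no replicates; the number of arrays limits the precision. The script was tested on simulated data. Alternatives were 3 other scalings, floors at the 90th and 99th percentile, no floor with 16 added, the mean over the probe sets of a gene, probe sets without the suffixes _x_at, _s_at and _a_at, and genes above the floor on both arrays. Python 3.11.15, numpy 2.4.6, pandas 2.3.3 and statsmodels 0.14.6 were used.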

Additional observations from a re-analysis of the deposited data

Results flagged for a closer look

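Probe sets that name Trpc2 together with an overlapping gene were not used for any gene above, and they were above the floor on both arrays. The probe set naming Xndc1 and Trpc2 had a signal of 432 on the columnar/hypertrophic array and 513 on the round array, a difference of -0.25. The probe set naming Xntrpc and Trpc2 had a signal of 102 on the columnar/hypertrophic array and 127 on the round array, a difference of -0.32. Both differences have the sign of those of the probe sets naming Trpc2 alone (-1.09 and -1.27) and are smaller.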

How the results depend on the processing

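The count of members called higher on the columnar/hypertrophic array was 1 when the probe sets of each gene were averaged, which left Piezo1, and 0 without _x_at, _s_at and _a_at probe sets, which removes the probe set of Piezo1 and turns Cacna1c to -0.19. The count of members called lower was 0 with equal medians, and 4 with no floor, which adds Cacna1h and Orai2. With the other alternatives the higher count was 2 or 3 and the lower count 2 or 3. The median of the members was -0.13 as reported and lay between -0.21 with no floor and 0.12 with equal medians. Equal medians moved the median of all genes to 0.22. Against the median of all genes, that of the members was -0.07 as reported, -0.10 with equal medians, 0.01 with lowess centring and 0.10 with quantile normalization, so its side of it is not settled. Over all genes 504 were higher and 745 lower as reported, 943 and 414 with equal medians, 568 and 581 with quantile normalization and 570 and 625 with lowess centring. Of the 46 members with a value in all 3 scalings 43 kept their sign, the exceptions being Cacna1a, Cacna1f and Plcb3. Of the 38 with a value in all 8 alternatives run on genes 28 kept it. Of 369 gene values 351 moved by less than the technical SD, and 16 had the opposite sign to the value reported, from 11 genes: Atp2c1, Cacna1a, Cacna1c, Cacna1f, Cacna2d1, Itpr2, P2rx4, Plcb1, Plcb3, Stim1 and Tmem38b. The count of 351 is no measure of stability. Equal medians moved genes above the floor on both arrays by the same amount, smaller than that SD, and other floors left bright genes unchanged. That SD is also a spread between probe sets, not between arrays. No paired analysis was possible because each group is 1 array. Without replicates or depth, a difference of 2-fold at signals near the floor is the least certain of those given, and 9 members are bounds.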
